A study of Mus musculus with 30 samples.

Results

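Rny1, Rny3 and Vaultrc5 encode the Y1 RNA, the Y3 RNA and the vault RNA of the mouse, and the values below describe the short fragments of these 3 RNAs in the prefrontal cortex. A read was counted for a member when its whole sequence matched the GENCODE M21 transcript of that gene exactly and in sense, and the 3 members were taken from a reference of 5662 small non-coding RNAs. Small RNA was excised from gels at 15 to 50 nt and sequenced from 6-month-old WT mice and from hemizygous 5xFAD mice (AD), littermates of both sexes on the C57BL/6J background whose sex per library was not used here. The 5xFAD transgenes are driven by the neuronal Thy1 promoter, so the AD group models amyloid formation driven from neurons. PANDORA-seq, in which the RNA was treated with T4PNK and AlkB before library construction, gave 8 WT and 8 AD libraries. Traditional-seq, built from untreated RNA, gave 7 WT and 7 AD libraries.

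Y RNAs are short RNA polymerase III transcripts whose 5' and 3' ends pair into a stem, which the Ro60 protein binds, and whose transcription stops in a run of U. They are known for roles in the start of DNA replication and in the quality control of misfolded RNA through Ro60. Vault RNA, also made by RNA polymerase III, is a component of the vault, a large ribonucleoprotein particle built from the major vault protein. T4PNK removes phosphates left on 3' ends and adds phosphates to 5' ends, and AlkB removes methyl groups that stop reverse transcriptase, so the treated libraries can hold fragments that plain adapter ligation misses.

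The annotation places Rny3 (ENSMUSG00000064945.1) on chromosome 6 at 47781624 to 47781725, plus strand, in GRCm38, as a single exon of 102 nt. Rny1 (ENSMUSG00000065701.1) lies 6344 bp away on the same chromosome at 47788069 to 47788180, minus strand, as a single exon of 112 nt, and neither gene overlaps another. The full transcripts are shown because the fragment ends are read against them. Capitals mark the most abundant 5' and 3' fragments in PANDORA-seq, which are positions 1 to 31 and 75 to 109 of Rny1 and positions 1 to 38 and 69 to 99 of Rny3, and both transcripts end in 4 T, the DNA letters of the terminal U run.
Rny1: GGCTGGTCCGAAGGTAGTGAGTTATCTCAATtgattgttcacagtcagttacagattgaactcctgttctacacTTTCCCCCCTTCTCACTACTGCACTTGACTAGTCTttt
Rny3: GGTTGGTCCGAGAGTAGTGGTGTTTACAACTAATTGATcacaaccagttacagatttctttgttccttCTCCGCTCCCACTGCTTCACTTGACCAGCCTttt

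Aligned end to end, Rny1 and Rny3 were identical at 81 of 112 columns (72.3%) and at 16 of their first 20 bases, and their longest shared run was 12 bases. No read was shared between the members. In the folds predicted by RNAfold, 17 pairs joined the first 40 to the last 40 bases of Rny1, 21 did so in Rny3, and the predicted minimum free energies were -34.3 and -27.1 kcal/mol. The next sequences are the 3 most abundant distinct reads of each Y RNA in each protocol, and the last 3 bases of each read are in capitals to show where the fragment ended. In the fragment from the 3' end of Rny1 the capitals mark the T of the terminal run instead.
Rny1 1 to 31 (first in PANDORA-seq, second in traditional-seq): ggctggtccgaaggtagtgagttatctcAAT
Rny1 1 to 30 (second in PANDORA-seq): ggctggtccgaaggtagtgagttatctCAA
Rny1 1 to 27 (the third in PANDORA-seq): ggctggtccgaaggtagtgagttaTCT
Rny1 1 to 32 (first in traditional-seq): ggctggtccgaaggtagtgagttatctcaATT
Rny1 83 to 110 (the third in traditional-seq): cttctcactactgcacttgactagtcTT
Rny3 1 to 38 (first in PANDORA-seq): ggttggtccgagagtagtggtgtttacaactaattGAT
Rny3 1 to 24 (second in PANDORA-seq): ggttggtccgagagtagtggtGTT
Rny3 1 to 26 (the third in PANDORA-seq): ggttggtccgagagtagtggtgtTTA
Rny3 3 to 27 (first in traditional-seq): ttggtccgagagtagtggtgttTAC
Rny3 3 to 31 (second in traditional-seq): ttggtccgagagtagtggtgtttacaACT
Rny3 1 to 39 (the third in traditional-seq): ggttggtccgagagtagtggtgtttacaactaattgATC

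The PANDORA-seq libraries held 54926347 to 105876141 reads and the traditional-seq libraries 9370669 to 17053412. Exact sense matches to the reference took 6.40 to 15.9% of the PANDORA-seq reads and 41 to 56.1% of the traditional-seq reads. The 6 neural miRNA hairpins of the marker list found in the reference had reads in every group, and their summed level was 1830 to 12463 RPM (reads per 1000000 reads of the library) in PANDORA-seq and 61890 to 165734 RPM in traditional-seq. A read that matched more than 1 of these hairpins was counted for each, so these sums can count the same reads several times. Reads of 43 to 45 nt, the longest deposited, made up 11.2 to 21.5% of the WT PANDORA-seq libraries and 2.13 to 10.7% of the AD ones, and traditional-seq had none over 42 nt. The summed level of the 2 skeletal muscle miRNAs, Mir133a-1 and Mir206, was 191 RPM in PANDORA-seq AD replicate 1, 78.3 RPM in replicate 6 and 31.6 RPM in replicate 7, against 1.03 to 5.00 RPM in the 8 WT libraries. The part of these library differences in the results below was not tested except where a value without the library or without the long reads is given. The study describes the libraries of each protocol as coming from separate mice, so p-values measure the spread between mice together with that of the preparation. File codes pair 14 libraries of each protocol, and only an alternative test of the levels used these pairs. If paired libraries come from the same mouse, the other tests between protocols treat them as separate mice. A lower level could reflect fewer cells of a type or less RNA per cell, which cannot be told apart in bulk tissue.

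Among the 5662 RNAs of the reference, those with the most reads included Rny1 in both protocols. Most PANDORA-seq reads matched none of these RNAs. Near copies of the 5S rRNA genes, which share reads, were ranked one by one. The ranks below therefore hold within this reference and not for all small RNAs of the cortex. In RPM of all reads in a library, Rny1 ranked 10th of the 5662 RNAs in PANDORA-seq, with a mean of 15370 RPM ± 4339 (SD, n = 16), and 15th in traditional-seq, with 11177 RPM ± 5105 (SD, n = 14). It was the most abundant of the 564 RNAs annotated as misc_RNA in both. The mean level of Rny3 was 4031 RPM ± 2813 in PANDORA-seq, where it ranked 16th, and 366 RPM ± 152 in traditional-seq, where it ranked 134th. Vaultrc5 was far lower, with 18.5 RPM ± 8.65 in PANDORA-seq (rank 632) and 4.58 RPM ± 1.72 in traditional-seq (rank 919). As transcripts of 102 to 143 nt differ little in length, the order of the members per nucleotide was the same as in RPM.

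**Figure D1:**
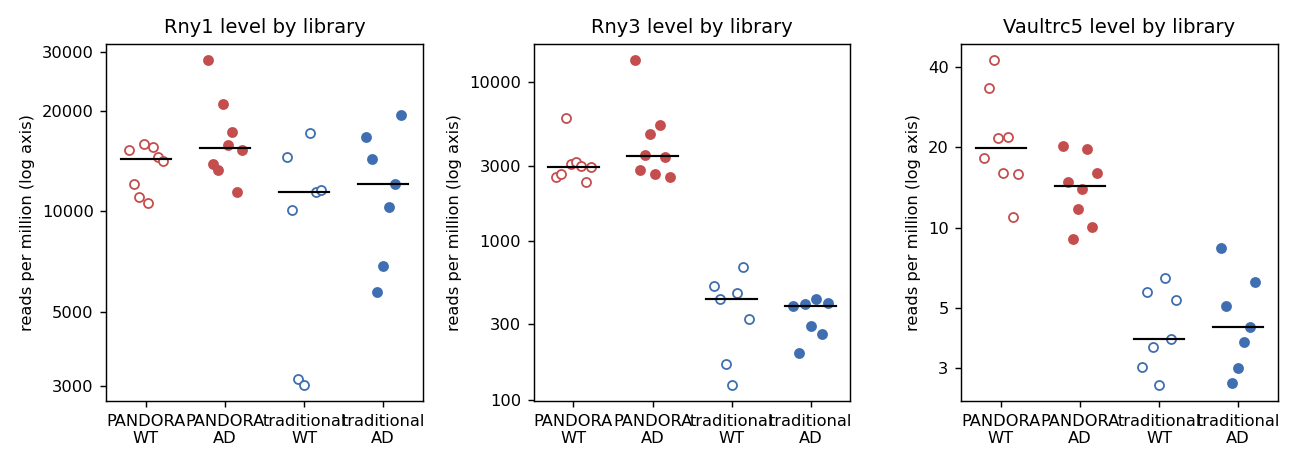
Level of Rny1, Rny3 and Vaultrc5 in each of the 30 libraries, in RPM on a log axis, with open points for WT, filled points for AD and a bar at the median of each group. The Rny3 and Vaultrc5 points of PANDORA-seq lie above all traditional-seq points, while the Rny1 points of the protocols overlap.

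For Rny1 the WT libraries of PANDORA-seq ran from 10636 to 15972 RPM (median 14357) and the AD libraries from 11478 to 28428 RPM (median 15555). In traditional-seq the Rny1 level ran from 3013 to 17164 RPM in WT (median 11445) and from 5724 to 19434 RPM in AD (median 12118). The lowest Rny1 levels were those of traditional-seq WT replicates 3 and 4, and the highest was that of PANDORA-seq AD replicate 1.

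For Rny3 the PANDORA-seq libraries ran from 2376 to 5976 RPM in WT (median 2953) and from 2535 to 13805 RPM in AD (median 3449). Traditional-seq gave 124 to 694 RPM in WT (median 436) and 198 to 432 RPM in AD (median 389). Every PANDORA-seq library was above every traditional-seq library, and the genotypes overlapped within each protocol. The ratio of Rny1 to Rny3 reads therefore had a median of 4.71 in PANDORA-seq, from 1.85 to 6.14 over the libraries, and of 26 in traditional-seq, from 14.2 to 72.5.

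For Vaultrc5 the PANDORA-seq levels were 11 to 42.2 RPM in WT (median 19.9) and 9.08 to 20.3 RPM in AD (median 14.4). The traditional-seq levels were 2.59 to 6.49 RPM in WT and 2.64 to 8.38 RPM in AD. These rest on 499 to 3156 reads per PANDORA-seq library but on only 28 to 94 reads per traditional-seq library, so shares within the vault RNA were coarse in the untreated libraries.

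The comparison of the protocols asked which fragments the enzyme treatment made visible. Over the 2726 RNAs with reads in at least 50% of the libraries, 46.4% were higher in PANDORA-seq and 30.1% lower on the RPM scale at an adjusted p under 0.05, and the median difference was 0.35 on the log2(RPM + 0.1) scale (permutation test, 100000 shuffles, two-sided, Benjamini-Hochberg over all RNAs). All 3 members were higher in PANDORA-seq, beside a background in which higher was the more frequent call. The difference was 3.41 for Rny3 (16 and 14 libraries, permutation test, adjusted p = 2.25e-05) and 1.96 for Vaultrc5 (permutation test, adjusted p = 2.25e-05), both at 1e-05 before adjustment, the smallest p that the shuffles can give. For Rny1 it was 0.61 (permutation test, adjusted p = 0.0142), which no longer passed within WT libraries alone (0.67, exact permutation test, adjusted p = 0.126) or within AD libraries alone (0.55, exact permutation test, adjusted p = 0.105). The files carry codes by which 14 libraries of each protocol form pairs, and over these pairs Rny1 was 0.55 higher and did not pass (exact permutation test, adjusted p = 0.0661), while Rny3 and Vaultrc5 were higher by 3.29 and 1.95 (exact permutation test, adjusted p = 0.000354 for both). With matched reads in place of all reads as the denominator, the differences were 2.76 for Rny1, 5.56 for Rny3 and 4.12 for Vaultrc5, since a smaller share of the PANDORA-seq reads matched the reference.

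The other RNA polymerase III transcripts of the fixed list, 155 RNAs of which 148 were 5S rRNA genes of the n-R5s series, moved mostly the same way. The n-R5s genes are near copies, and a read was counted for each RNA it matched, so their tally and median count the same reads several times. Of the 109 n-R5s genes and 7 others with enough reads, 77 were higher and 7 lower in PANDORA-seq, and their median difference was 1.64 on the log2(RPM + 0.1) scale. Outside the n-R5s genes, all 7 were higher, with a median of 2.67. They were Rn7sk, a regulator of transcription elongation, at 3.09, Rn7s1 and Rn7s6, RNAs of the signal recognition particle, at 2.67 and 2.56, Rmrp, the RNA of RNase MRP, at 2.57, Rpph1, the RNA of RNase P, at 3.82, Rnu6, the U6 spliceosomal RNA, at 2.23, and Bc1, a neuronal cytoplasmic RNA, at 4.17 (permutation test, 16 and 14 libraries, adjusted p = 2.25e-05 for each). Rny3 lay within this range, Vaultrc5 just below it, and Rny1 well below it. Whether the members differ from the rest of the list was not tested.

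Reads came from different places in the 3 members. Fragments were called 5' fragments when they started at positions 1 to 3 and 3' fragments when they ended within the last 5 positions, and the deposited reads were too short to span a transcript. Rny1 reads were 81.4% ± 8.09 (SD, n = 16) 5' fragments and 15.3% ± 7.17 3' fragments in PANDORA-seq, and 79.0% ± 6.89 (SD, n = 14) and 14.3% ± 3.86 in traditional-seq. Rny3 reads were 66.8% ± 20.2 and 63.5% ± 6.58 5' fragments under the same protocols, and 25.7% ± 17.7 and 19.9% ± 6.91 3' fragments. Its 5' share spread widely among the PANDORA-seq libraries, from 25% in WT replicate 3 to 91.0%. Most Vaultrc5 reads, 61.1% ± 18.6 in PANDORA-seq and 76.9% ± 13.7 in traditional-seq, came from neither end.

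**Figure D2:**
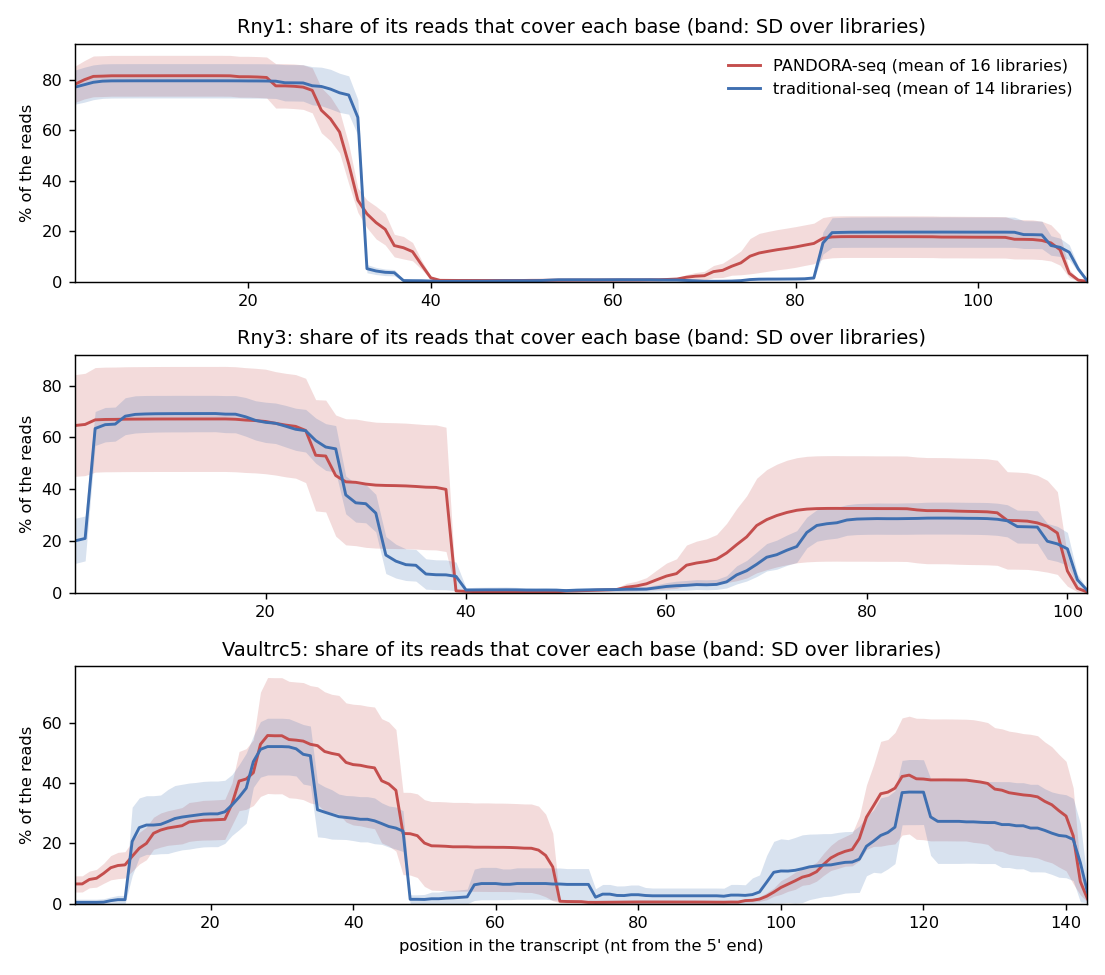
Share of the reads of each member that cover each position of its transcript, in percent, against the position in nt from the 5' end, with lines for the mean of 16 PANDORA-seq and 14 traditional-seq libraries and bands for the SD. Rny1 and Rny3 show a high 5' block, an almost uncovered loop and a lower 3' block, while Vaultrc5 peaks at position 28 and again near its 3' end.

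The least covered positions inside the Y RNAs lay in the loop region, at position 41 of Rny1 in traditional-seq (0.0755% of its reads) and at position 44 of Rny3 in PANDORA-seq (0.225%). The most covered position of Rny1 was 15 in PANDORA-seq (81.6% of its reads) and 13 in traditional-seq (79.6%). Vaultrc5, by contrast, was covered most at position 28 in both protocols, by 55.8% of its PANDORA-seq reads and 52.1% of its traditional-seq reads. In traditional-seq its position 1 was the least covered, at 0.466%.

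Among the 522 RNAs other than miRNA hairpins with at least 20 reads in every library, 20.5% had a higher and 11.9% a lower 5' share in PANDORA-seq. Of the members, Vaultrc5 alone passed, with 8.06% ± 2.77 against 0.466% ± 1.05, a difference of 7.59 percentage points (permutation test, adjusted p = 5.22e-05). In 11 of the 14 traditional-seq libraries no vault RNA read started at positions 1 to 3, which allows shares of up to 3.90 to 7.89% at 3 counts of the total, and the other libraries held 3 such reads in all. These limits overlap the PANDORA-seq range of 3.74 to 11.8%. With the first 10 positions counted as the 5' end, the difference turned to -6.84 percentage points (permutation test, adjusted p = 0.0331), because 19.3% of the traditional-seq reads of Vaultrc5 started at position 9.

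The 5' share of Rny3 did not pass, with a difference of 3.34 percentage points (permutation test, adjusted p = 1.0), but the exact start did. Of the Rny3 reads, 64.6% ± 19.7 started at position 1 with enzyme treatment and 20% ± 8.73 without it, a difference of 44.58 percentage points (permutation test, adjusted p = 7.05e-05), beside 17.8% of the 522 RNAs with a higher and 6.32% with a lower share at position 1. In traditional-seq the leading start was position 3, with 42.5% ± 13.8 of the Rny3 reads, against 1.77% ± 0.619 in PANDORA-seq. The ranges for position 3 did not overlap, at 0.605 to 2.97% and 7.99 to 61.6%. The reads 3 to 27 and 3 to 31 printed above lack the first GG of the transcript. Rny1, which shares those first bases, did not show such a start, as 97.6% ± 1.49 of its 5' fragments in traditional-seq and 96.3% ± 1.73 in PANDORA-seq began at position 1.

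In the 3' share, 31.8% of the 522 RNAs were higher and 19.3% lower in PANDORA-seq, and none of the members passed (differences of 1.03, 5.80 and 8.20 percentage points for Rny1, Rny3 and Vaultrc5, permutation test, adjusted p = 0.927, 0.429 and 0.314). Ends at the very last base were rarer in PANDORA-seq for both Y RNAs, at 0.0846% ± 0.0671 against 0.190% ± 0.0654 of the Rny1 reads (permutation test, adjusted p = 0.000636) and 0.229% ± 0.211 against 0.814% ± 0.505 of the Rny3 reads (permutation test, adjusted p = 8.75e-05). Over the same RNAs 9.77% were higher and 32.8% lower by that measure. For Vaultrc5 the shares were 1.68% and 3.88% (permutation test, adjusted p = 0.0561).

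The position of the 3' end within the terminal run of T also differed between the protocols for both Y RNAs. Of the Rny1 3' fragments, 60.5% ± 2.23 in PANDORA-seq ended at position 109, the first T of the run, against 13.4% ± 3.03 in traditional-seq, where 46.3% ± 4.10 ended at position 110 and 34% ± 5.23 at position 111. Of the Rny3 3' fragments, 56.6% ± 1.74 in PANDORA-seq ended at position 99, again the first T, against 9.98% ± 2.10 in traditional-seq, where 60.2% ± 2.69 ended at position 100. At positions 109 of Rny1 and 99 of Rny3 the libraries of the protocols did not overlap, with 55.9 to 63.7% against 9.50 to 19.1% and 53.2 to 59.1% against 6.29 to 14.3%. The 3' fragments of Rny1 and Rny3 thus carried mostly a single T in PANDORA-seq and more T in traditional-seq. These positions, and the inner ends below, were neither tested nor set beside those of other RNAs.

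The inner ends of the fragments set the protocols apart as well. In traditional-seq 75.8% ± 4.16 of the 5' fragments of Rny1 ended at position 32, against 6.77% ± 2.11 in PANDORA-seq, where the ends spread over positions 31 (17.5% ± 4.19), 30 (15.4% ± 4.74), 27 (9.73% ± 1.97) and 35 (7.96% ± 2.73). The 3' fragments of Rny1 started at position 83 in 71.7% ± 6.01 of cases in traditional-seq and in 14% ± 6.28 in PANDORA-seq, where starts at 75 (13% ± 5.67) and 71 (9.49% ± 3.37) were nearly as frequent. For Rny3 the order was turned around. In PANDORA-seq 54.0% ± 21.3 of its 5' fragments ended at position 38, 15.3% ± 11.6 at 24 and 13.2% ± 8.18 at 26, while in traditional-seq the leading ends were 27 (25.9% ± 7.19), 31 (22.6% ± 4.48) and 39 (8.24% ± 8.48).

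**Figure D3:**
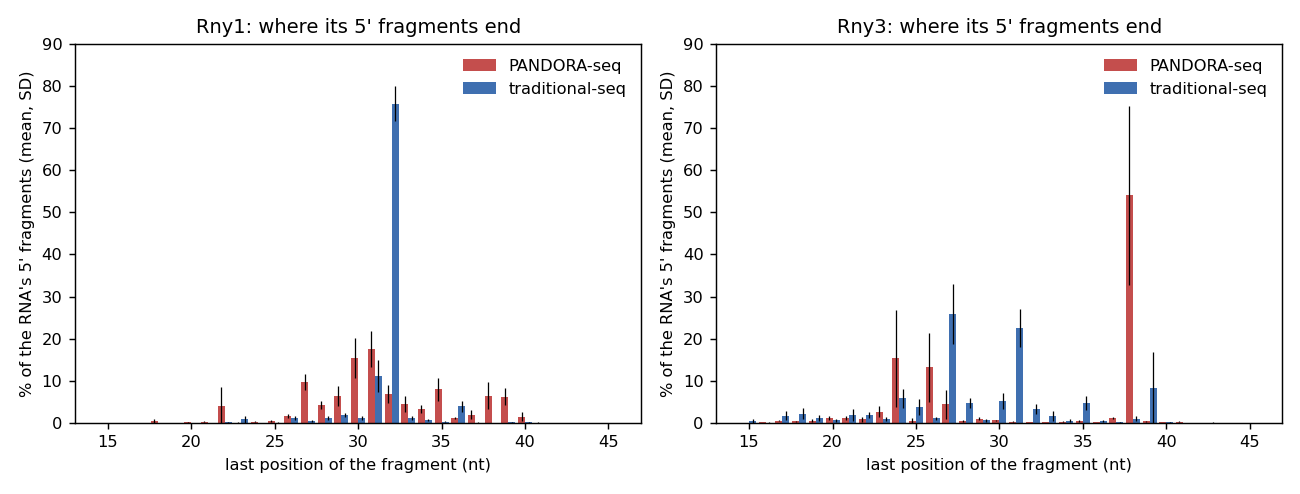
Last position of the 5' fragments of Rny1 and Rny3 in nt, against the share of the 5' fragments in percent, as bars for the mean and lines for the SD over 16 PANDORA-seq and 14 traditional-seq libraries. In traditional-seq 75.8% of the Rny1 fragments stop at position 32, and in PANDORA-seq 54.0% of the Rny3 fragments stop at position 38.

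How far a single sequence dominated followed these ends. The most abundant sequence of each library's Rny1 reads held 15.8% ± 3.84 of them with enzyme treatment and 58.8% ± 6.03 without it, a difference of -43.06 percentage points (permutation test, adjusted p = 3.2e-05). For Rny3 the sign was the other way, with 40.5% ± 22.9 against 15.0% ± 3.36, a difference of 25.4 points (permutation test, adjusted p = 0.00055). For Vaultrc5 it was 8.45% ± 4.95 against 19.5% ± 9.88, a difference of -11 points (permutation test, adjusted p = 0.000466). Within WT libraries this Vaultrc5 difference was -7.78 points and did not pass (exact permutation test, adjusted p = 0.0984). Within AD libraries it was -14.25 points (exact permutation test, adjusted p = 0.00627). Its traditional-seq shares rest on 28 to 94 reads per library, and low counts raise the share of a top sequence. The part of this in the difference was not tested. Across the 522 RNAs, 44.4% were higher and 20.7% lower in PANDORA-seq by this measure and the median difference was 2.73 points. The measure was added after the data had been seen.

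The 38 nt read of Rny3 was abundant in PANDORA-seq and close to 0 in traditional-seq. Its level was 386 to 2361 RPM (median 1155) in WT and 509 to 2334 RPM (median 1119) in AD by PANDORA-seq, and 0 to 1.69 RPM in WT and 0.158 to 1.55 RPM in AD by traditional-seq, with at most 22 reads in a library. Conversely, the Rny1 read 1 to 32 stood at 1396 to 12379 RPM over the traditional-seq libraries and at 472 to 1545 RPM over the PANDORA-seq libraries. The Rny1 read 1 to 31, a single base shorter, stood at 1207 to 3491 RPM in PANDORA-seq and 177 to 2174 RPM in traditional-seq. As the T4PNK and AlkB treatments, the number of reads and the longest deposited length (45 and 42 nt) all differ between the protocols, their parts in these differences cannot be told apart.

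Vaultrc5 (ENSMUSG00000065145.1) is annotated on chromosome 18 at 36801866 to 36802008, plus strand, in GRCm38, as a single exon of 143 nt with no overlapping gene. Its predicted minimum free energy was -54.2 kcal/mol, with 20 pairs between its first 40 and last 40 bases. In PANDORA-seq its reads started most often at position 27 (9.43% ± 8.44), 24 (7.62% ± 5.29), 112 (7.08% ± 7.00) and 1 (6.58% ± 2.69), and ended at 141 (15.2% ± 12.1), 46 (14.3% ± 7.51) and 68 (11.4% ± 10.9). In traditional-seq 22.6% ± 6.73 ended at position 47 and 17.9% ± 12.1 at 34. Its PANDORA-seq reads were on average 32.8 nt ± 1.63 long and its traditional-seq reads 25 nt ± 1.37, and 36.3% ± 12.9 of the traditional-seq reads were 20 to 24 nt long, against 15.5% ± 5.14. No sequence of this gene is printed here.

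Its leading PANDORA-seq reads were 27 to 68, 112 to 141 and 23 to 46. The read 27 to 68 stood at 0.191 to 3.54 RPM in WT and 0.0910 to 2.29 RPM in AD, and the read 112 to 141 at 0.0246 to 7.06 RPM in WT and 0.0121 to 0.546 RPM in AD, so that both overlapped between the genotypes. In traditional-seq the leading read of Vaultrc5 was 9 to 34, with a mean of 0.563 RPM ± 0.591 in WT and 0.896 RPM ± 0.812 in AD, while the read 26 to 47, second there, was absent from all 16 PANDORA-seq libraries.

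The comparison of AD with WT asked whether fragments of these RNAs change in the AD cortex. Summed per RNA, no member passed an adjusted p of 0.05 with a fold change over 2 in edgeR's quasi-likelihood test, in either protocol. In PANDORA-seq 48 of 2015 RNAs were called lower (2.38%) and 2 higher (0.0993%), and the median of all was 0.11 on the log2 scale. The log2 fold changes, AD minus WT, were 0.39 ± 0.22 (SE) for Rny1 (edgeR, adjusted p = 0.480), 0.54 ± 0.38 for Rny3 (edgeR, adjusted p = 0.653) and -0.68 ± 0.33 for Vaultrc5 (edgeR, adjusted p = 0.373). Without AD replicate 1, the library with the highest Rny1, Rny3 and skeletal muscle miRNA levels, they were 0.28, 0.17 and -0.74 (edgeR, adjusted p = 0.703, 0.935 and 0.338). Without WT replicate 3, the WT library with the highest Rny3 level, Rny3 changed by 0.84 and Vaultrc5 by -0.36 (edgeR, adjusted p = 0.336 and 0.645), and without AD replicate 3 Rny1 changed by 0.24. In traditional-seq 0 of 1394 RNAs were called (0%), with 9 at an unadjusted p under 0.05, 0 called by DESeq2, and the members at 0.14, -0.32 and 0.07 (edgeR, adjusted p = 0.999 for each).

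None of the 155 RNA polymerase III transcripts of the list was called in either protocol by edgeR, with 102 tested in PANDORA-seq and 83 in traditional-seq, and their median log2 fold changes were 0.08 and 0.30. Nor did a 5' or 3' share of a member differ between AD and WT. In PANDORA-seq 0.645% of 930 RNAs had a lower 5' share in AD and none a higher one, while 3.87% had a higher and 0.753% a lower 3' share. In traditional-seq 0% of 527 RNAs differed in either share. Both sets were the RNAs other than miRNA hairpins with at least 20 reads in every library of the protocol. For the 5' share the differences in PANDORA-seq were 2.38 percentage points for Rny1, -0.35 for Rny3 and -0.272 for Vaultrc5 (exact permutation test, adjusted p = 1.0 for each).

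Taken as single sequences, 19810 distinct reads could be tested in PANDORA-seq, of which 4.71% were called lower and 0.151% higher in AD, with a median log2 fold change of 0.13. Rny1 had 504 of these, with 7 called lower and 3 higher. Rny3 had 389, with 3 lower and 2 higher, and Vaultrc5 had 22, with 1 lower and none higher. The share called lower was thus below the background for both Y RNAs and near it for Vaultrc5, on 1 sequence. The calls of higher sequences rested on counts of 2 and 3, and none was left for Rny1 in 5 and for Rny3 in 9 of the 16 fits with 1 library left out. With single libraries left out, the number called ran from 5 (without WT replicate 5) to 22 (without AD replicate 1) for Rny1, from 0 (without WT replicate 5 or AD replicate 3) to 6 for Rny3, and from 1 to 4 (without AD replicate 5) for Vaultrc5. In traditional-seq 0% of 4105 sequences were called by edgeR, with 26 at an unadjusted p under 0.05 and 0 called by DESeq2. There 117 sequences of Rny1 and 58 of Rny3 were tested and none of Vaultrc5.

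**Figure D4:**
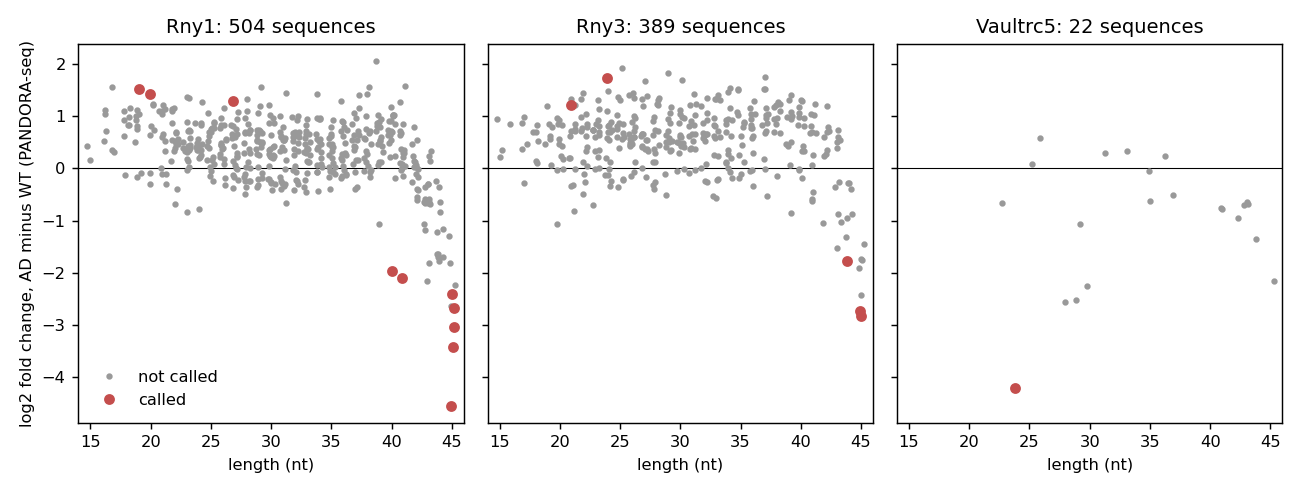
Log2 fold change (AD minus WT, PANDORA-seq, edgeR) of each tested sequence of Rny1, Rny3 and Vaultrc5 against its length in nt, with grey points for sequences not called and large red points for called ones, all spread sideways a little for sight. Points of Rny1 and Rny3 lie mostly above 0 up to 42 nt and mostly below 0 at 43 to 45 nt, and 17 of the 22 Vaultrc5 points lie below 0. Only sequences that passed the filter of the main fit are shown. With a filter of 10 reads over all libraries, the median of 320 Vaultrc5 sequences was 0.0185.

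Among the Y RNA sequences, as among all sequences tested, the sign went with length. Of the 504 Rny1 sequences 376 lay above 0, with a median of 0.39, and of the 389 Rny3 sequences 313 did, with a median of 0.62, beside 58.8% of all 19810 sequences. At 43 to 45 nt 35 of 38 Rny1 sequences lay below 0 (median -1.17) and so did 19 of 24 Rny3 sequences (median -0.91). Of all 1807 sequences of that length 92.9% lay below 0 (median -2.03), so the fall of the longest reads was not particular to the Y RNAs. Without AD replicate 1 the medians over all lengths were 0.11 for Rny1 and 0.09 for Rny3, beside 0.09 over all sequences tested. With any other single library left out they ran from 0.33 to 0.43 for Rny1 and from 0.50 to 0.84 for Rny3, beside 0.08 to 0.17. Of the 22 Vaultrc5 sequences 17 lay below 0, including all 5 of 43 to 45 nt, with a median of -0.69. With a filter of 10 reads over all libraries, 320 Vaultrc5 sequences were tested and their median was 0.0185. The lean below 0 was thus seen only among the 22 more abundant sequences. Under that filter the medians were 0.32 for Rny1 and 0.40 for Rny3.

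The read lengths within Rny3 are described here without a test. Reads of 20 to 24 nt made up 5.47 to 13.4% (median 12) of its PANDORA-seq reads in WT and 11.6 to 47% (median 16.5) in AD, and its mean read length was 32.1 to 36.2 nt in WT and 28.5 to 34.8 nt in AD. The groups overlapped by both measures. In traditional-seq the 20 to 24 nt share of Rny3 was 11.5 to 32.6% in WT and 13.4 to 20.4% in AD.

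The share of 43 to 45 nt reads within each RNA was a measure added after the data had been seen. It was lower in AD for 52.7% of the same 930 RNAs, miRNA hairpins left out, in PANDORA-seq, with a median difference of -1.39 percentage points. For Vaultrc5 this share was 5.73 to 21.5% in WT (median 17.5) and 2.52 to 16.1% in AD (median 7.43), a difference of -7.43 points (exact permutation test, adjusted p = 0.0434). The groups overlapped. Over the 16 fits with 1 library left out the difference ran from -6.55 to -8.80 points and the adjusted p (exact permutation test) from 0.0191 to 0.0823, and the call was lost in 11 of them. For Rny1 the means were 0.900% in WT and 0.361% in AD (exact permutation test, adjusted p = 0.0758), and for Rny3 2.49% and 0.920% (exact permutation test, adjusted p = 0.148). Without AD replicate 1 the difference of Rny1 passed, at -0.65 points (exact permutation test, adjusted p = 0.0221).

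The sequences of Rny1 and Rny3 called lower in AD were long and mostly came from inside the transcript. These 3 are shown for their places across the loop and the 3' arm, with the last 3 bases in capitals except for Rny1 64 to 108, whose last base lies just before the terminal T. All 3 are 45 nt long, the longest length deposited, so the RNA fragments may have run beyond the last base shown.
Rny1 24 to 68: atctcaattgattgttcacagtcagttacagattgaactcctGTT
Rny1 64 to 108: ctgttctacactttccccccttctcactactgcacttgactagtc
Rny3 52 to 96: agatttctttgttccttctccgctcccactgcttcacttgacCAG

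The read 24 to 68 of Rny1 held 0.163 to 0.793 RPM (median 0.491) in WT and 0 to 0.0728 RPM (median 0.0175) in AD, on 15 to 75 and 0 to 6 reads, and the groups did not overlap. Its log2 fold change was -4.56 ± 0.56 (edgeR, adjusted p = 3.27e-05), and it stayed called with any library left out. The sequence 24 to 68 also occurs in another GENCODE transcript, so its reads cannot be assigned to Rny1 alone, while the other called sequences of Rny1 and Rny3 occur in no other. The read 64 to 108 of Rny1 held 3.63 to 10.3 RPM (median 4.96) in WT and 0.0435 to 2.04 RPM (median 0.189) in AD, again without overlap (-3.43 ± 0.70, edgeR, adjusted p = 0.00395). Of all 1807 sequences of 43 to 45 nt tested, 92.9% lay below 0, with a median of -2.03. How many of those were called or did not overlap is not given here, so neither trait is particular to Rny1 on these values. Of the other Rny1 sequences called lower, 1 to 45, 51 to 95 and 63 to 107 changed by -2.41, -2.68 and -3.04 and stayed called with any library left out, while 63 to 103 and 64 to 103, of 41 and 40 nt, changed by -2.10 and -1.98 and stayed called in 3 and 11 of the 16 such fits. For Rny3 the changes were -2.84 for 52 to 96, -2.75 for 40 to 84 and -1.78 for 42 to 85, called in 5, 9 and 6 of the 16 fits. All 10 but 1 were longer than 40 nt and thus outside the fit restricted to 15 to 40 nt. The exception, 64 to 103 of Rny1, changed there by -2.09 and was not called (edgeR, adjusted p = 0.283).

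The sequences called higher in AD were short. The reads of Rny1 and of Rny3 are shown because all but the last follow the same 5' arm.
Rny1 1 to 20: ggctggtccgaaggtagTGA
Rny1 2 to 20: gctggtccgaaggtagTGA
Rny3 1 to 21: ggttggtccgagagtagtGGT
Rny1 56 to 82: ttgaactcctgttctacactttccCCC

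Rny3 1 to 24, the second most abundant Rny3 read in PANDORA-seq, held 67.1 to 325 RPM (median 165) in WT and 149 to 1305 RPM (median 450) in AD. The groups overlapped, and the highest AD values were those of replicates 7 and 1, at 1305 and 961 RPM, which were also among the 3 AD libraries with raised skeletal muscle miRNAs, and the part of this in the result was not tested beyond leaving out single libraries. Its log2 fold change was 1.73 ± 0.47 (edgeR, adjusted p = 0.0357), but the call held in 6 of 16 fits with 1 library left out and was lost without AD replicate 1 (1.62, edgeR, adjusted p = 0.0541), without AD replicate 7 (1.42, edgeR, adjusted p = 0.0832) and at 15 to 40 nt (1.56, edgeR, adjusted p = 0.576). Without AD replicate 6, the other library with raised skeletal muscle miRNAs, the change was 1.84 and stayed called (edgeR, adjusted p = 0.0232). Rny1 1 to 20 held 3.42 to 11.9 RPM in WT and 7.57 to 39.5 RPM in AD, and the groups overlapped. It changed by 1.42 ± 0.41 (edgeR, adjusted p = 0.0498), Rny1 2 to 20 by 1.53, Rny1 56 to 82 by 1.29 and Rny3 1 to 21 by 1.23, and these were called in 5, 8, 6 and 3 of the 16 fits. At 15 to 40 nt their changes were 1.27, 1.37, 1.13 and 1.08, and none was called (edgeR, adjusted p = 0.513 to 0.636).

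**Figure D5:**
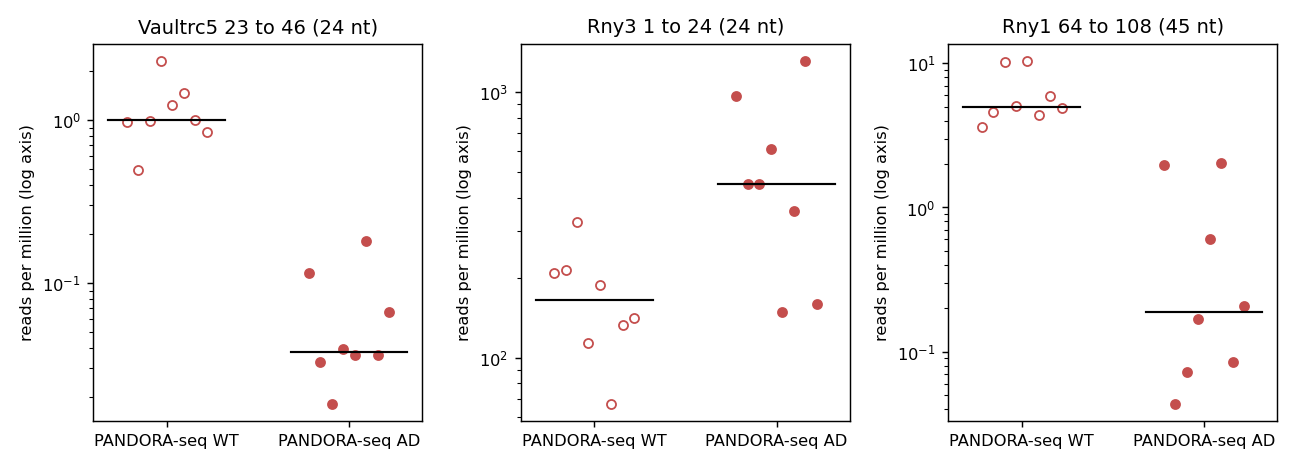
Level of 3 called sequences in each PANDORA-seq library, in RPM on a log axis, with open points for WT, filled points for AD and a bar at the median. The groups do not overlap for Vaultrc5 23 to 46 and for Rny1 64 to 108, and they overlap for Rny3 1 to 24. The share of all tested sequences without overlap is not given here.

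In the main fit a single vault RNA read, 23 to 46 of Vaultrc5, was called lower in AD, and 1 call among 22 tested Vaultrc5 sequences was near the background share of all sequences. At 24 nt it was well short of the longest class, and in the fit restricted to 15 to 40 nt it was 1 of 19 sequences called lower among 16523. Its level in the 8 WT libraries was 0.497 to 2.30 RPM (median 1.0), on 47 to 183 reads, and in the 8 AD libraries 0.0182 to 0.182 RPM (median 0.0378), on 1 to 15 reads. The groups did not overlap. The share of all tested sequences without overlap is not given here, so this trait is not particular to the read on these values. The log2 fold change was -4.22 ± 0.46 (edgeR, adjusted p = 1.03e-05), and it was called with any library left out (-4.53 to -4.00), by the likelihood ratio test and DESeq2, and at 15 to 40 nt (-4.32, edgeR, adjusted p = 0.000205). In traditional-seq the read was seen once, in an AD library, so no difference was detectable at that depth. Other settings called more Vaultrc5 sequences in PANDORA-seq. With a filter of 10 reads over all libraries, 5 of 320 were lower and 3 higher, beside 2514 lower and 144 higher of all 93418. The likelihood ratio test and DESeq2 each called 2 of the 22 lower and none higher.

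The fall of the read 23 to 46 was not shared by every read ending at the same base. The read 24 to 46, which lacks only the first nucleotide, stood at 0.460 RPM ± 0.363 in WT and 0.276 RPM ± 0.186 in AD (-0.66, edgeR, adjusted p = 0.653), and the read 12 to 46 at 0.303 and 0.286 RPM (-0.06, edgeR, adjusted p = 0.977). The difference between these changes was not tested. Reads 23 to 45 and 27 to 46 had too few counts for the test, at 0.217 and 0.221 RPM in WT and 0.0256 and 0.0517 RPM in AD. The whole vault RNA level was not called, as given above.

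The small RNAs whose level ran most like each member over the 30 libraries were ranked by the SD of the log2 ratio to the member. The ranking covered 990 RNAs with at least 10 reads in every library, and the share of small nucleolar RNAs among them is not given here. The first 3 RNAs for each member were small nucleolar RNAs, apart from a mitochondrial tRNA. For Rny1 they were Snord118 (SD 0.373), Gm25744 (0.470) and Snord69 (0.479), beside a median SD of 1.34. For Rny3 they were Gm25788 (0.558), the mitochondrial tRNA mt-Tp (0.592) and Snord104 (0.606), beside 1.93. For Vaultrc5 they were Snord15b (0.576), Snord88a (0.603) and Snord59a (0.609), beside 1.40. All these points share the library totals and the protocol difference, and no test was made on them.

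Reads that could also stem from another transcript were a small share of each member's reads, although 613 of the 2021 distinct Rny1 sequences, 27 of 1649 for Rny3 and 15 of 986 for Vaultrc5 were of this kind. Reads of Rny1 that also occur in another GENCODE transcript, mostly Gm24372, were at most 0.850% of its reads in PANDORA-seq and at most 4.81% in traditional-seq, and for Rny3 at most 0.190%. For Vaultrc5 they were at most 0.336% and 4.11% under the same protocols. In antisense, 1 read of Rny1 was found in all libraries together and none of Rny3 or Vaultrc5.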

How the data were processed

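Small RNA of the prefrontal cortex was sequenced in 30 libraries. The deposited files, made by the authors after adapter removal, list each distinct sequence with its length in nt and its raw read count. The labels name mm39 as the genome build, and the methods name SPORTS1.1 for the authors' own annotation, which was not used here. Sequences of 15 to 45 nt (PANDORA-seq) or 15 to 42 nt (traditional-seq) were matched exactly and in sense to GENCODE M21 small non-coding transcripts (GRCm38, whose coordinates are given), and reads were summed by gene, start, end and length. Genotypes were compared within each protocol with edgeR 4.0.16 (quasi-likelihood, TMM, filterByExpr with min.count 10, Benjamini-Hochberg, fold change over 2), and protocols by permutation of log2(RPM + 0.1) or of shares. With 8 against 8 libraries the exact test can reach 0.000155 and with 7 against 7, 0.000583. DESeq2 1.42.0, other filters and scalings, the replicate block, 1 mismatch, length limits and leaving out each library were alternatives. The tests were run on simulated data first. The text names the members, their 3 most abundant sequences per protocol, every called sequence, the RNA polymerase III list and the 3 most alike RNAs. Rny4 and Rnu6atac of that list were not found in the reference. The members, lists and tests were chosen with earlier results of these data known. Limits for shares of 0 cover counting error only. Replicate numbers did not pair the libraries. RNAfold 2.7.2 gave the folds.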

Additional observations from a re-analysis of the deposited data

Results flagged for a closer look

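Over 54 groups of 7 or 8 libraries and measures of the 3 members, 9 held a library far from the others of its group by Dixon's test. Chance alone gives about 1 in 20 for independent values that follow a normal distribution. Measures of the same member, such as its 5' and 3' shares, are linked, so that rate is only a rough guide here. In PANDORA-seq the Rny3 level was 13805 RPM in AD replicate 1 and 5976 RPM in WT replicate 3, and WT replicate 3 also had the highest share of 43 to 45 nt reads in Rny1, at 2.13%. The most abundant sequence of Vaultrc5 held 16.4% of its reads in PANDORA-seq AD replicate 5. In traditional-seq AD replicate 3, the 5' share of Rny1 was low at 70.6% and its 3' share high at 21.8%. The most abundant sequence of Rny3 held 10.5% of its reads in traditional-seq AD replicate 7, and that of Vaultrc5 held 44.2% in traditional-seq WT replicate 6. The 5' share of Vaultrc5 was 3.57% in traditional-seq WT replicate 4, the single WT library of that protocol with such a read.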

How the results depend on the processing

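In PANDORA-seq the 50 RNAs called between AD and WT were 2 without TMM and 0 at 15 to 40 nt, and the 963 sequences called were 1497 with DESeq2, 2658 with a filter of 10 reads over all libraries and 20 at 15 to 40 nt. Leaving out single libraries gave 44 to 59 RNAs and 812 to 1293 sequences. With the replicate block 48 RNAs were called, and Rny1, Rny3 and Vaultrc5 changed by 0.33, 0.42 and -0.52. With the replicate block none of the 5 sequences called higher in Rny1 and Rny3 passed (adjusted p = 0.0533 to 0.166), nor did Rny1 63 to 103 and 64 to 103 and Rny3 40 to 84 among those called lower (0.0595, 0.0595 and 0.0753), while 7 of the 10 and Vaultrc5 23 to 46 passed. The numbers did not pair the libraries (r of -0.43 to 0.45 in PANDORA-seq and -0.43 to 0.51 in traditional-seq), and no member as a whole was called with or without the block. The higher level of Rny1 in PANDORA-seq no longer passed within WT (0.67), within AD (0.55), with 14 library pairs (0.55), with 1 mismatch (0.44) and in edgeR over both protocols without TMM (0.46). The 5' share difference of Rny3 was 44.58 points at position 1 alone and -2.05 over 10 positions, and that of Vaultrc5 -6.84 over 10 positions. The 3' share difference at the last base alone was -0.105 for Rny1, -0.585 for Rny3 and -2.20 for Vaultrc5, and for Rny1 it was -2.07 over 10 positions and -0.0355 at 15 to 40 nt. The lower top sequence share of Vaultrc5 in PANDORA-seq was -7.78 points within WT and no longer passed. Between AD and WT, signs turned for shares that were not called: the Vaultrc5 5' share in PANDORA-seq (0.139 at position 1, 1.77 over 10 positions, 0.453 at 15 to 40 nt) and traditional-seq (6.09 over 10 positions), the Rny1 3' share at the last base (0.0155 and 0.0161), and the Vaultrc5 3' share in traditional-seq (-1.75 over 10 positions). With single libraries left out, the traditional-seq log2 fold change of Rny1 ran from -0.03 to 0.42, negative without WT replicate 3 (-0.005) or 4 (-0.032), and that of Vaultrc5 from -0.10 to 0.15, negative without WT replicate 4 (-0.06) or AD replicate 1 (-0.10). The share of 43 to 45 nt reads ran from -0.65 to -0.362 points for Rny1 and from -8.80 to -6.55 for Vaultrc5. The causes were not tested.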
